A study of Mus musculus with 90 samples.

Results

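The animals compared here were the 49 zileuton-treated mice of a series of 90 female Diversity Outbred (J:DO) mice, divided by where each animal number falls within its run of 50 consecutive numbers. Each run has positions 1 to 50, and the zileuton animals took positions 25 to 50 of 8 runs. The late animals were the 25 at positions 38 to 50, and the early animals were the 24 at positions 25 to 37. The labels do not say what a run or a position stood for, such as a cage, a delivery, a day or an order of necropsy. Both sets were given zileuton, an inhibitor of 5-lipoxygenase, at 300 mg per kg by mouth daily for 7 days. They were 6 to 20 weeks old, and coats were agouti, black and white in 18, 3 and 4 late animals and in 16, 3 and 5 early animals. The remaining 41 mice of the series received sterile distilled water by the same route for 7 days and were also 6 to 20 weeks old. Their coats were agouti, black and white in 29, 6 and 6 animals. These vehicle animals held positions 13 to 20 only. Zileuton therefore cannot be told apart from position where either set is compared with vehicle, whereas the comparison of late with early animals lies within the treated mice. Diversity Outbred mice are outbred descendants of several founder strains, so each animal carries its own mixture of genomes and the animals of a set are not genetic copies. Each animal gave 1 liver library, and each animal is 1 replicate.

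The clock transcripts Arntl, Dbp and Ciart were taken as candidate markers of position. The question was whether they and the other liver transcripts differed between late and early animals under the same treatment. The circadian clock is a feedback loop in which BMAL1, the product of Arntl, and CLOCK or NPAS2 drive transcription of the Per, Cry, Nr1d and Ciart genes, whose products repress that drive. The REV-ERB proteins, products of Nr1d1 and Nr1d2, repress Arntl itself, and the proteins DBP, TEF and HLF carry the rhythm to genes of liver metabolism. In mouse liver Arntl and Npas2 therefore peak when Dbp, Per3 and Ciart are low, and the balance of both sets follows the hour at which a liver was taken. No sampling hour is stated in the labels.

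Libraries of late animals held 12664579 to 38865109 estimated counts (median 27839125) and those of early animals 16993409 to 31941622 (median 24324860). The mean difference of 2710550 counts gave p = 0.107 in a two-sided permutation test over animals with 100000 resamples. Summed hepatocyte markers ran from 4182 to 6451 CPM (median 5130) in late animals and from 4310 to 6350 (median 5316) in early animals, and all 8 of the 9 listed markers in the table were tested. CPM is the estimated count scaled to library size with TMM factors. Summed Kupffer and macrophage markers had medians of 252 and 212 CPM in late and early animals, erythroid markers 204 and 281 CPM, and exocrine pancreas markers 12.3 and 16.3 CPM. The sum of the adipose list was 1411 and 2037 CPM, nearly all of it Car3. That sum follows Car3 and does not by itself show fat tissue, since Lep, Plin1 and Retn had a median of 0 CPM. Of the exocrine pancreas markers, 5 of 8 had a median of 0 CPM over the treated animals, as did 3 of 6 adipose, 1 of 7 erythroid and 6 of 8 skeletal muscle markers. Summed skeletal muscle markers were at most 0.731 CPM in late animals and reached 1953 CPM in 1 early animal, number 2181. The part of these marker sums in the results below was not tested. Without animal 2181 the log2 fold change of late over early was −0.52 for Arntl, 0.38 for Dbp, 0.76 for Ciart and −0.24 for Rpl7l1, against −0.51, 0.40, 0.58 and −0.23 with it.

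Few transcripts passed the threshold between late and early animals, and how many passed depended on the method. In the edgeR quasi-likelihood test with run as a term, 1 of 13110 genes tested (0.00763%) passed a Benjamini-Hochberg adjusted p under 0.05. That gene was Rpl7l1, which encodes a protein related to ribosomal protein L7, and it was lower in late animals. In whole liver, fewer cells of a type and less RNA per cell cannot be told apart. No clock gene passed. At an unadjusted p under 0.05 stood 1656 genes (12.6%), 878 higher and 778 lower in late animals. With no difference in any gene, a share of 0.05 would stand there on average. DESeq2, run as an alternative, called 47 genes. The median log2 fold change over all genes tested was 0.00.

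Arntl, the clock activator (chromosome 7, 113207465 to 113314126, mm10), had a lowest, median and highest level of 0.694, 4.26 and 21.6 CPM in late animals, against 0.762, 7.77 and 23.7 CPM in early animals. Among late animals 20 of 25 lay below the early median, yet the lowest and highest levels of both sets nearly coincide. The log2 fold change of late over early was −0.51 ± 0.37 (SE, n = 25 and 24; 95% interval −1.26 to 0.24), with an adjusted p of 0.595 in the edgeR test. In vehicle animals Arntl ranged from 1.48 to 34.6 CPM around a median of 25.0.

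Dbp, a transcription factor of clock output (chromosome 7, 45705088 to 45710203), ran from 8.73 to 155 CPM around a median of 85.7 in late animals, against 0.413 to 191 CPM around 53.4 in early animals. In late animals 19 of 25 lay above the early median, and the early set held both the lowest and the highest level. The log2 fold change was 0.40 ± 0.37 (SE; 95% interval −0.35 to 1.14; adjusted p = 0.702, edgeR). Ciart, a repressor of CLOCK and BMAL1 (chromosome 3, 95878503 to 95882251), ran from 0.439 to 25.6 CPM around 5.84 in late animals, against 0.704 to 16.4 CPM around 3.25 in early animals. Its log2 fold change was 0.58 ± 0.40 (SE; 95% interval −0.22 to 1.38; adjusted p = 0.556, edgeR), and 19 of 25 late animals lay above the early median. For each of the 3 markers the interval covers both no difference and a difference of more than 2-fold.

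**Figure D1:**
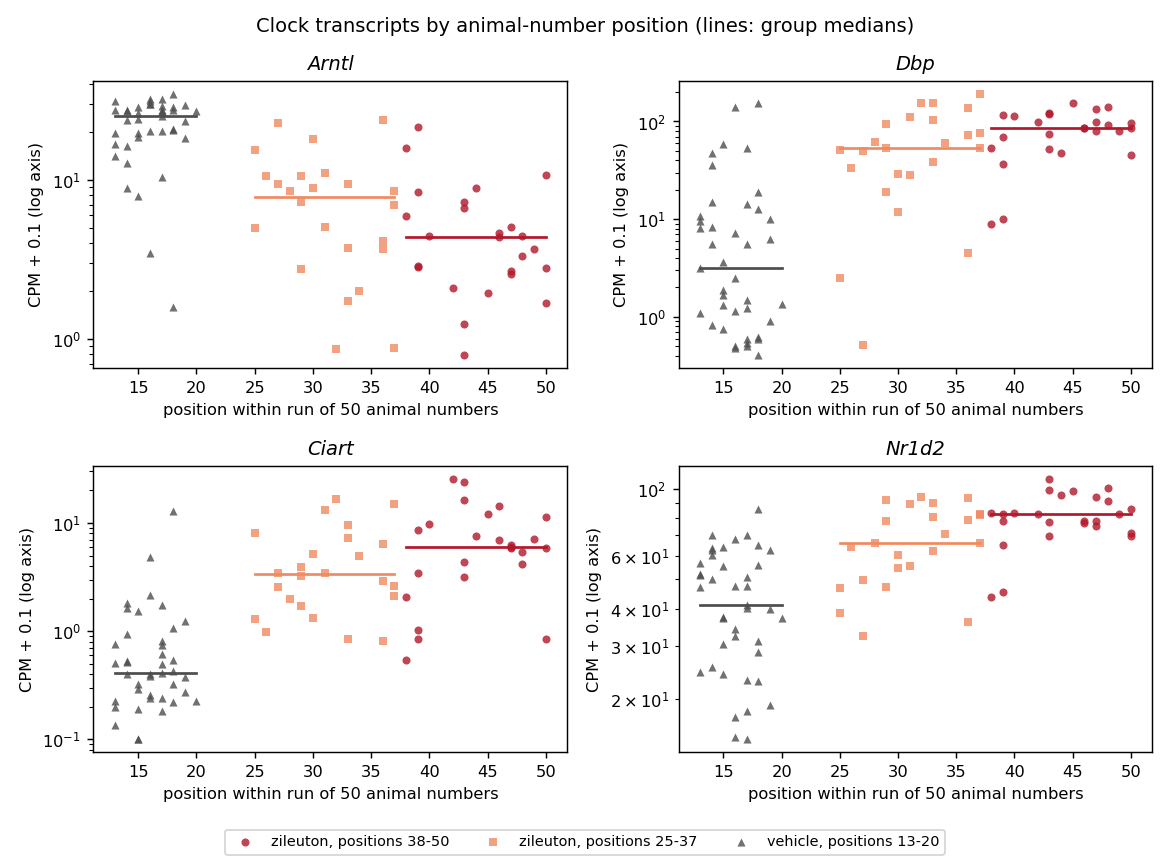
Level of Arntl, Dbp, Ciart and Nr1d2 in each animal (CPM plus 0.1, log axis) against its position within its run of 50 animal numbers, with late zileuton animals as circles, early zileuton animals as squares, vehicle animals as triangles and group medians as lines. Late and early points overlap over nearly their whole range, and the late median of Arntl (4.26 CPM) lies below the early one (7.77 CPM) while the late medians of the other 3 genes lie above.

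Single animals stood at the far end from the rest of their set, and in several of them Arntl and Dbp stood at opposite ends. Late animals 2089 (run 2, position 39) and 2188 (run 4, position 38) had the highest late levels of Arntl, 21.6 and 15.9 CPM, and the lowest late levels of Dbp, 9.93 and 8.73 CPM. The same animals had the lowest late levels of Nr1d2, 45.5 and 43.5 CPM. Both stood next to the boundary between the sets, but the other late animals at the same positions had lower Arntl. These were 2289, 2389 and 2189 at position 39, with 2.74, 2.79 and 8.30 CPM, and 2238 at position 38, with 5.85 CPM. The third highest late Arntl, 10.7 CPM, was that of animal 2350 at position 50. Among early animals, 2186 and 2177, both of run 4, had the highest Arntl, 23.7 and 22.7 CPM, with Dbp at 4.41 and 0.413 CPM. Early animals 2082 (run 2) and 2037 (run 1) had the lowest Arntl of their set, 0.762 and 0.776 CPM, and the highest Dbp, 156 and 191 CPM. The late set did not mirror this. Its lowest Arntl, 0.694 and 1.15 CPM in animals 2393 and 2043, came with Dbp of 118 and 121 CPM. The highest late Dbp, 155 CPM, was that of animal 2045. Above 10 CPM of Arntl were 3 of 25 late, 7 of 24 early and 37 of 41 vehicle animals. Below 20 CPM of Dbp were 2 late, 5 early and 35 vehicle animals.

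Dbp levels were narrower at the highest positions. At positions 42 to 50 (18 animals) Dbp ran from 45.4 to 155 CPM with a mean of 94.1 ± 30.8 (SD), at positions 34 to 41 (14 animals) from 4.41 to 191 CPM with a mean of 71.6 ± 52.99, and at positions 25 to 33 (17 animals) from 0.413 to 156 CPM with a mean of 58.6 ± 48.8. Median Arntl was 8.79 CPM at positions 25 to 33, 5.11 at 34 to 41 and 3.41 at 42 to 50. Median Nr1d2 was 61.8, 78.5 and 82.1 CPM in the same order. Ciart followed neither pattern, with medians of 3.34, 2.64 and 6.50 CPM in that order and its widest spread at positions 42 to 50 (SD 6.84 CPM, against 4.25 at 34 to 41 and 4.54 at 25 to 33). This description carries no test of its own. With position as a number and run as a term, the slope per 10 positions was −0.61 ± 0.22 log2 units (SE) for Arntl, 0.60 ± 0.26 for Dbp and 0.52 ± 0.28 for Ciart, with adjusted p of 0.237, 0.321 and 0.443 in the edgeR test. No gene was called for a slope on position in the treated animals. At an unadjusted p under 0.05 stood 1621 genes, and the lowest adjusted p was 0.103, a value that Nr1d2, Bhlhe40, Lin9, Fam76b, Akap11 and Lamtor1 share.

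Within runs the direction was mixed for the 3 markers. Mean log2 Arntl was lower in late than in early animals in 4 of 8 runs and higher in 4, with differences between −1.32 (run 4, 6 late and 6 early animals) and 1.36 (run 2, 4 late and 3 early). Dbp was higher in 4 runs and lower in 4, between −0.89 in run 7 and 2.27 in run 1. Ciart was higher in 5 runs and lower in 3, between −1.57 in run 2 and 2.36 in run 3. Several of these values rest on 1 animal, since runs 3 and 5 had 1 late animal each and runs 5, 6 and 7 had 1 early animal each. Without run 4 the log2 fold change was −0.17 for Arntl and 0.10 for Dbp, and without run 2 it was −0.86 for Arntl and 0.93 for Ciart, none of them past the threshold. Rpl7l1, by contrast, was lower in late animals in 8 of 8 runs, by −0.67 (run 5) to −0.05 (run 3), although this gene was picked out by the same comparison.

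**Figure D2:**
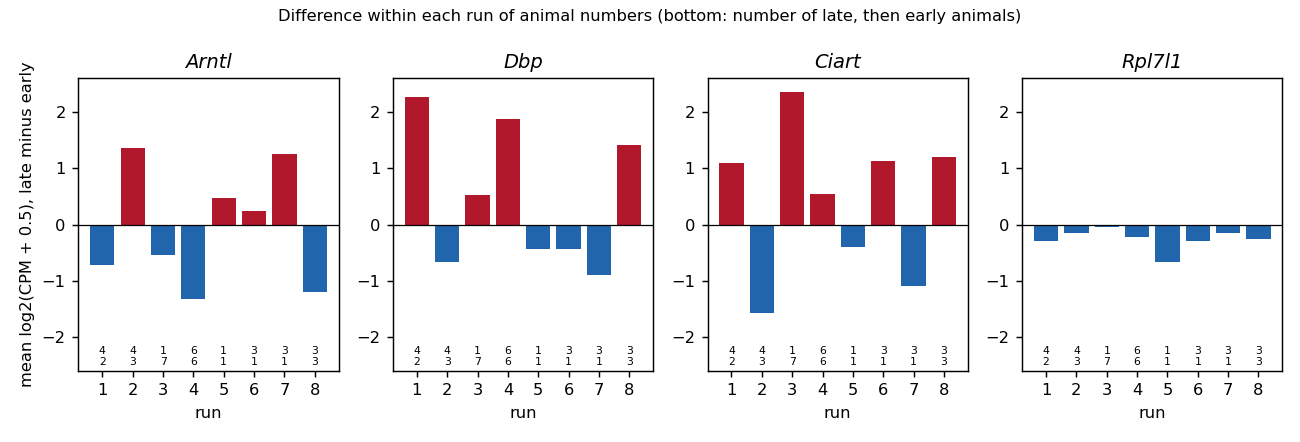
Mean log2(CPM + 0.5) of late minus early zileuton animals within each of the 8 runs of animal numbers, for Arntl, Dbp, Ciart and Rpl7l1, with the number of late animals over that of early animals beneath each bar. Bars of the clock genes point both ways across runs, whereas all 8 bars of Rpl7l1 are below 0.

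The clock genes as a list showed an ordered but untested pattern. All 5 genes in phase with Arntl had a negative log2 fold change, and all 11 of the opposite phase a positive one. With 0 of 5 and 0 of 11 called by edgeR, against 0.00763% of all genes, 1 of the 5 and 2 of the 11 had an unadjusted p under 0.05, against 12.6% of all genes. Median log2 fold changes were −0.32 among genes in phase with Arntl and 0.30 among the opposite ones, beside 0.00 over all genes. These genes are driven by the same oscillator and correlate across animals, so their signs are not separate observations.

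In phase with Arntl, Npas2, which can stand in for CLOCK as partner of BMAL1, had medians of 0.512 CPM in late and 1.16 CPM in early animals and a log2 fold change of −0.90 ± 0.62 (SE). Nfil3, a repressor that competes with DBP for its sites, had medians of 13.4 and 16.3 CPM in late and early animals (−0.32 ± 0.19). Cry1, which encodes a cryptochrome repressor, had medians of 5.91 and 6.50 CPM (−0.28 ± 0.13; adjusted p = 0.385, edgeR). Clock itself differed by −0.04 ± 0.10. The lowest adjusted p of this list was that of Cry1.

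Of the opposite phase, Nr1d2, which encodes REV-ERB beta, had the lowest p. It ran from 43.5 to 108 CPM around 82.1 in late animals, against 32.2 to 93.5 CPM around 66.0 in early animals. In late animals 22 of 25 lay above the early median, and the log2 fold change was 0.30 ± 0.11 (SE; adjusted p = 0.268, edgeR). Hlf, a partner of DBP in clock output, had medians of 50.7 and 45.8 CPM in late and early animals and a log2 fold change of 0.16 ± 0.067. Larger but less even differences were those of Bhlhe41, a repressor of BMAL1 targets, at 0.49 ± 0.44, Usp2, a ubiquitin protease, at 0.40 ± 0.33, and Per3, a period protein, at 0.35 ± 0.25. Tef stood at 0.26 ± 0.16. The core repressors Per1, Per2 and Nr1d1 stood at 0.15 ± 0.23, 0.13 ± 0.19 and 0.15 ± 0.17. None of these passed the threshold.

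Among 8 other clock genes, 7 had a positive and 1 a negative fold change. An unadjusted p under 0.05 was met by 3 of them, against 12.6% of all genes. Bhlhe40, a repressor of BMAL1 targets, had medians of 99.0 and 77.8 CPM in late and early animals (log2 fold change 0.35 ± 0.14 SE; adjusted p = 0.291, edgeR). Rora, an activator of Arntl, had medians of 62.7 and 57.9 CPM in late and early animals (0.12 ± 0.061). Of 13 clock-controlled liver genes, 7 were positive and 6 negative with a median log2 fold change of 0.01. The most abundant of them, Fmo5, a flavin monooxygenase, had medians of 632 and 604 CPM (0.01 ± 0.12).

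Across the 49 treated animals, after the mean of each run was removed, the transcripts most like Arntl included Chka (choline kinase), with a Pearson correlation of 0.910 in log2 CPM, Npas2 with 0.872, Lgalsl with 0.861 and Clock with 0.858. The most opposite were Tef with −0.879, Fam76a with −0.845, Per3 with −0.841, Slc5a6 (a vitamin transporter) with −0.839 and Dbp with −0.817. Ciart stood at −0.760 and Rpl7l1 at 0.181. These are descriptions over 11966 genes with a mean of at least 1 CPM, chosen as the extremes of that list, and the animals share library preparation and treatment.

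Promoter sequences are shown for 3 clock genes because the loop described above acts through short elements in such windows. Each is the 300-base window from 250 bases before to 50 bases after a RefSeq transcription start on GRCm38.p6, written 5′ to 3′ on the strand of the gene, with matches in capitals. The elements searched on both strands were the E-box CACGTG of CLOCK and BMAL1, the D-box forms TTATGTAA and TTACGTAA of DBP and its relatives, and AGGTCA, the hexamer that REV-ERB and ROR receptors read. CACGTG occurred in 7.15% of 32851 promoters in the table, TTATGTAA in 0.938%, TTACGTAA in 0.119% and AGGTCA in 16.3%.
Ciart, chr3:95882179-95882478, minus strand, with 3 CACGTG: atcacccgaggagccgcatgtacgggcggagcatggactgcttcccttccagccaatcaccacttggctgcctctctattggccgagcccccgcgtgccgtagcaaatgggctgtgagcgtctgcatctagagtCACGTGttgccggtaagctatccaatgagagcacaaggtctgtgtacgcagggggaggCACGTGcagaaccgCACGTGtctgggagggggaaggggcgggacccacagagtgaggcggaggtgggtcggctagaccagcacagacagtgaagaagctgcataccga
Per3, chr4:151044616-151044915, minus strand, with 2 TTATGTAA: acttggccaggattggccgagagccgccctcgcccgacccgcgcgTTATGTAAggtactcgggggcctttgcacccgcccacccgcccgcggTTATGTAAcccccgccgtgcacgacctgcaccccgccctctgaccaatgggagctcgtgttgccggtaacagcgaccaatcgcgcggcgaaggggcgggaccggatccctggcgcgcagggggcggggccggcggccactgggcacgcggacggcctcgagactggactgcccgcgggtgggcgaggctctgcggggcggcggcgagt
Arntl, chr7:113207261-113207560, plus strand, with 1 AGGTCA: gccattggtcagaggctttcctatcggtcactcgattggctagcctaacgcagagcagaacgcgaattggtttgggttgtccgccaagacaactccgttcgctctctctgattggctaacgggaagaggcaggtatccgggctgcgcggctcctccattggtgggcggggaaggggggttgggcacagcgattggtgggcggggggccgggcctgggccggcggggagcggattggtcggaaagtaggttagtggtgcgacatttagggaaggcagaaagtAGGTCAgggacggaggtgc

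Of the 16 clock genes in both phase lists, 15 had an entry in that table, and CACGTG stood in a window of 5 of them, namely Cry1, Ciart, Per1, Tef and Bhlhe41. AGGTCA also stood in a window of 5, namely Arntl, Clock and Nfil3 in phase with Arntl, and Nr1d2 and Per1 of the opposite phase. Some genes have several windows, and Arntl has another, overlapping one that holds no match. Counted per gene over any window, CACGTG occurred in 8.09% and AGGTCA in 18.1% of 27025 genes. The windows of Dbp held none of the 4 elements, which says only that these letters are not in that window. A match is a description of the letters and not a measured site.

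Against the same 41 vehicle animals, with run as a term, 3676 of 13563 genes (27.1%) were called in late animals, 1822 higher (13.4%) and 1854 lower (13.7%), and 2499 (18.4%) in early animals, 1334 higher (9.84%) and 1165 lower (8.59%). Both comparisons share the vehicle animals, so they are given side by side, and the direct comparison of late with early animals is the test of any difference between them. Arntl fell in both sets, by 2.24 ± 0.27 on the log2 scale in late animals (adjusted p = 3.26e-10, edgeR) and by 1.62 ± 0.27 in early animals (8.71e-06). Dbp rose by 2.97 ± 0.51 in late and 2.37 ± 0.49 in early animals, and Ciart by 3.58 ± 0.43 and 2.81 ± 0.42. Npas2 fell by 3.33 ± 0.45 in late animals and by 2.38 ± 0.45 in early animals. All 5 genes in phase with Arntl were called lower in both sets, and of the 11 of the opposite phase 11 were called higher in late and 9 in early animals. The 2 not called in early animals were Nr1d1, at 0.54 ± 0.17 in late and 0.39 ± 0.18 in early animals, and Hlf, at 0.30 ± 0.066 and 0.13 ± 0.068.

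**Figure D3:**
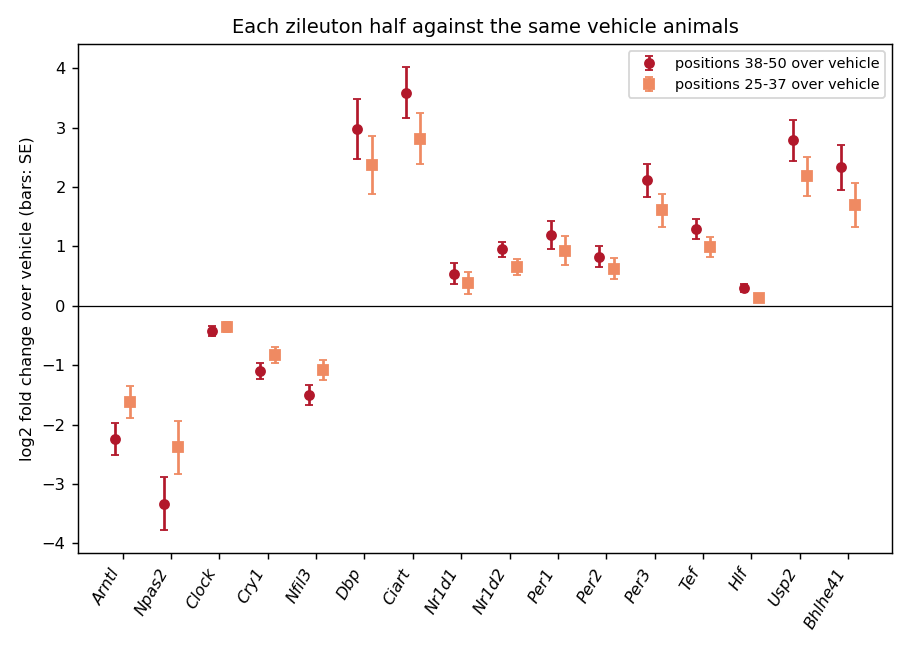
Log2 fold change over the same 41 vehicle animals, with its SE as bars, for 16 clock genes in late (circles) and early (squares) zileuton animals. The late points lie farther from 0 for every gene drawn, by 0.07 for Clock to 0.95 for Npas2, and since vehicle animals held positions 13 to 20 the treatment and the position cannot be told apart here.

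Vehicle animals spanned 8 positions and gave no called gene for a slope on position, with 700 genes at an unadjusted p under 0.05 by edgeR. The slope of treated animals minus that of vehicle animals was called for 0 of 13563 genes, with 690 at an unadjusted p under 0.05, and it was −1.15 ± 0.76 log2 units per 10 positions for Arntl, 1.32 ± 1.92 for Dbp and −1.75 ± 1.61 for Ciart. Without run as a term, 1 gene was called for this difference. The errors of the vehicle slopes are large because 8 positions are a short span.

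Rpl7l1 (chromosome 17, 46773907 to 46782672) ran from 40.4 to 57.9 CPM around 51.3 in late animals, against 44.98 to 73.9 CPM around 59.2 in early animals. All 25 late animals lay below the early median, although the ranges overlap. How reads shared with related ribosomal protein copies were counted is not stated. The log2 fold change was −0.23 ± 0.042 (SE, n = 25 and 24; adjusted p = 0.0231, edgeR), that is 50.6 ± 4.62 CPM in late and 58.7 ± 6.15 CPM in early animals (mean ± SD). Vehicle animals ranged from 47.1 to 86.9 CPM around 59.5. Against them the log2 fold change was −0.28 ± 0.042 in late animals (adjusted p = 2.43e-07, edgeR) and −0.06 ± 0.043 in early animals (0.317). Its value stayed between −0.25 and −0.20 under all 25 alternatives, of which 12 kept it past the threshold. Among the alternatives in which it missed the threshold in edgeR were coat colour as a term (adjusted p = 0.0509), no run term (0.0768) and agouti animals only (0.152). Others were those without run 1 (0.211) or run 8 (0.102), and the outer positions (0.181). It also missed with the length index described below as a term (0.286), and with the number of the library code, 1 to 12, as a term (0.925).

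The other genes with the lowest p had differences of the same small size and were not called in the main edgeR test. Higher in late animals were Lin9, a subunit of a cell cycle regulator, with medians of 2.29 and 1.90 CPM in late and early animals (log2 fold change 0.42 ± 0.092 SE), and Akap11, an anchoring protein of protein kinase A, with 36.2 and 30.4 CPM (0.25 ± 0.055). Fam76b stood at 0.31 ± 0.069 and Zfp729a, a zinc finger gene, at 0.33 ± 0.076. In late animals 23 of 25 lay above the early median for Lin9 and Akap11, and 24 for Fam76b. Lower were Lamtor1, which anchors a nutrient-sensing complex at the lysosome, with medians of 43.6 and 46.6 CPM in late and early animals (−0.20 ± 0.045), Adrm1, a ubiquitin receptor of the proteasome, with 61.2 and 68.1 CPM (−0.24 ± 0.056), Ebna1bp2, a ribosome assembly factor (−0.20 ± 0.045), and Uspl1 (−0.22 ± 0.049). Their adjusted p was 0.109 or 0.123 in the edgeR test. DESeq2, run as an alternative, called 47 genes, 26 higher and 21 lower. The genes named in this paragraph were among them, with DESeq2 adjusted p from 0.020 (Ebna1bp2) to 0.030 (Zfp729a). In edgeR, Lin9 also passed without run 2 (adjusted p = 0.0463) and Uspl1 without run 4 (0.0202).

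The genes with a low p differed in length by direction. The median summed exon length was 7295 bases for the 878 genes higher in late animals at an unadjusted p under 0.05, 2854 bases for the 778 lower and 4356 bases over all tested genes with a length. Of the 3233 genes with the shortest exons, 30.5% had a positive fold change, with 41 higher and 359 lower at that p. Of the 3230 with the longest, 70.2% had one, with 486 higher and 73 lower. A length index was computed per animal as the slope of its log2 CPM, relative to the mean of all treated animals, on log2 exon length. It ran from −0.066 to 0.14 around 0.017 in late animals and from −0.11 to 0.096 around −0.013 in early animals, overlapping widely. With this index as a term, added after the data were seen, 897 genes had an unadjusted p under 0.05 instead of 1656, and none was called. The index is made from the levels of the genes tested, so as a term it takes up any difference that goes with length, whatever its source. The drop therefore cannot tell what the source was. The marker genes lie on both sides of the median length, Arntl at 7523, Dbp at 2993 and Ciart at 2261 bases.

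**Figure D4:**
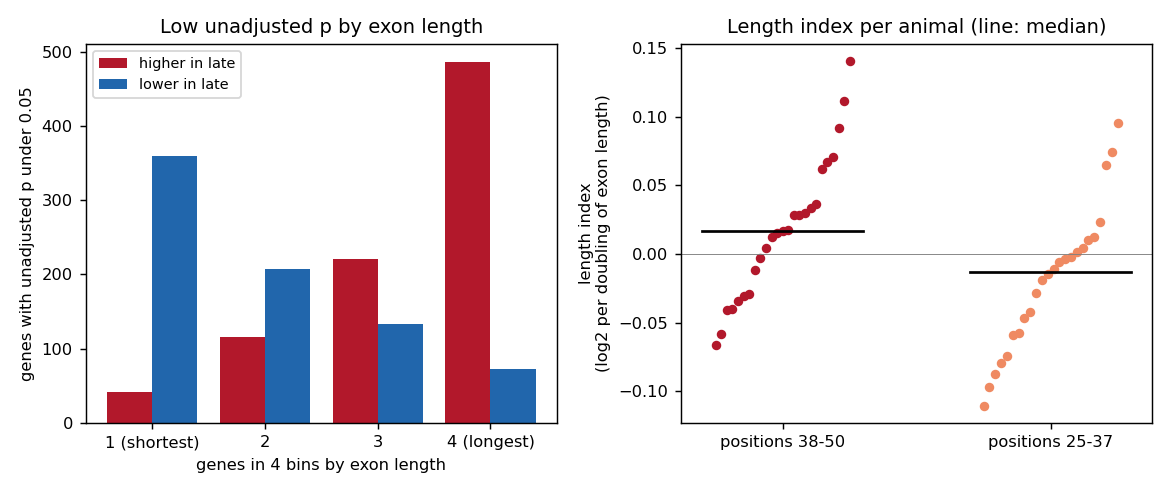
Left, number of genes with an unadjusted p under 0.05 that were higher or lower in late animals, in 4 bins of summed exon length; right, the length index of each treated animal (log2 CPM per doubling of exon length) in late and early animals, with medians as lines. Genes higher in late animals number 486 in the longest bin and 41 in the shortest, and the median index is 0.017 in late and −0.013 in early animals.

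The labels also give each library a code of a letter from A to H and a number from 1 to 12, read here as a plate row and column. Numbers 3, 4 and 5 held 0 late animals and 3, 2 and 2 early animals, and number 11 held 6 late and 1 early. With this number as a term, which costs 11 degrees of freedom, 632 of 13110 genes had an unadjusted p under 0.05 and none was called, while the log2 fold changes were −0.48 for Arntl, 0.28 for Dbp, 0.22 for Ciart and −0.23 for Rpl7l1. With the letter as a term 1 gene was called and 1600 had an unadjusted p under 0.05. Whether the low p-values followed length, library code or position was not tested.

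Lists of other liver functions were read the same way, and no list among 42 had a called member. Of 22 CAR and PXR targets, genes of drug metabolism, 17 were called higher than vehicle in late and 18 in early animals, and 1 was called lower in late and 0 in early animals. Over all genes, 13.4% were called higher than vehicle in late and 9.84% in early animals. Cyp2c29, a drug-metabolising cytochrome P450, had medians of 8596 and 7640.1 CPM in late and early animals and 2158 CPM in vehicle animals, and its log2 fold change of late over early was 0.07 ± 0.11 (95% interval −0.15 to 0.30; adjusted p = 0.832, edgeR). Among the 22 targets, 3 were positive and 19 negative in late over early, with a median of −0.05. Cyp1a2, a target of the AhR receptor, stood at −0.08 ± 0.12 and Fabp1, a fatty acid binding protein and PPARalpha target, at −0.04 ± 0.11. Of 27 cell cycle genes 24 were negative, with a median of −0.24, none at an unadjusted p under 0.05, and 25 were called higher than vehicle in late and 24 in early animals, beside the same 13.4% and 9.84% of all genes. Ccnd1, the most abundant of them, stood at −0.02 ± 0.21.

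Most heat shock genes had lower values in late animals, though none was called. Of 17 heat shock genes 16 were negative, with a median of −0.22. An unadjusted p under 0.05 was met by 6 of them, against 12.6% of all genes in either direction, and 0 were called. Hspa8, the constitutive HSP70 chaperone and the most abundant member, ran from 486 to 1797 CPM around 989 in late animals, against 702 to 2264 CPM around 1148 in early animals (log2 fold change −0.27 ± 0.12 SE; adjusted p = 0.366, edgeR). Dnajb1, an HSP70 co-chaperone named here because it had the lowest p of the list, had medians of 20.9 and 26.7 CPM in late and early animals (−0.36 ± 0.10; adjusted p = 0.170). Of 20 genes of the unfolded protein response 14 were negative, with a median of −0.07 and none at an unadjusted p under 0.05. Among them Hspa5, the endoplasmic reticulum chaperone BiP, had medians of 639 and 815 CPM (−0.21 ± 0.11). All 3 cold-inducible RNA-binding genes tested were positive, and Srsf5, a splicing factor, had medians of 87.1 and 67.4 CPM in late and early animals (0.31 ± 0.10; adjusted p = 0.234). None of these genes was called.

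Of 23 plasma protein genes 20 were negative, while Alb, which encodes albumin, stood at 0.00 ± 0.093. At an unadjusted p under 0.05 stood 5 lower and 1 higher, against 12.6% of all genes. Apoc3, an apolipoprotein with the lowest p of that list, had medians of 1432 and 1724 CPM in late and early animals (−0.30 ± 0.073; adjusted p = 0.134, edgeR). Of 24 cholesterol synthesis genes 20 were negative with a median of −0.06 and none at an unadjusted p under 0.05. Fatty acid synthesis had 13 of 17 positive, and Scd1, its most abundant gene, ran from 433 to 26871 CPM in late animals and from 422 to 17588 CPM in early animals (0.35 ± 0.37). Genes that respond to fasting were divided, 6 positive and 6 negative, and Pck1, the gluconeogenic enzyme, stood at 0.07 ± 0.23. Among 11 glucocorticoid-responsive genes 7 were positive, with a median of 0.14. At an unadjusted p under 0.05 stood 2 higher and 0 lower, against 12.6% of all genes. Tat, a tyrosine aminotransferase and the most abundant of them, stood at −0.11 ± 0.19. Beside these leanings, shorter genes as a whole had negative medians, −0.06 among the shortest 3233 and 0.06 among the longest 3230.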

How the data were processed

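Liver RNA was sequenced per animal (TruSeq RNA kit, Illumina HiSeq 2000, per the labels' protocols). The authors deposited a table of estimated counts per gene (76.7% whole numbers) and a table of normalized signal, in which each library's rounded counts were divided by 1 factor to within a relative deviation of 5.02e-06. Partek, STAR, DESeq2 and the build mm10 appear in the submitters' processing notes, with no versions. What counted the reads, on which annotation and with which strand setting, is not given in the sources used here.

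Estimated counts were rounded and tested with edgeR 4.0.16 (R 4.3.3) by the quasi-likelihood F test, with TMM scaling, filterByExpr at a minimum count of 10 and robust dispersion. The model held run and late or early, and p-values were two-sided with Benjamini-Hochberg adjustment over all 13110 genes tested. The common biological coefficient of variation was 30.2%, and intervals use 40 residual degrees of freedom. Each SE of a fold change or slope was derived from the test, as its absolute log2 value divided by the square root of F. It can be too small where there is almost no fold change. Between treated libraries the lowest chi-square per gene was 50.7, well above sampling noise. Comparisons with vehicle used 1 fit of all 90 animals and 13563 genes. Coordinates and exon lengths come from GENCODE M21 on GRCm38 (mm10), which matched 17848 of 18223 symbols (97.9%), and promoters from RefSeq. The pipeline was tested on simulated counts.

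Named genes were Arntl, Dbp and Ciart, the clock lists, the 5 lowest p per direction with a mean of at least 1 CPM, and the most abundant member of lists described. Of the genes this rule names, 3 are not reported here. The members and the lists were chosen with earlier results of these data known. Alternatives covered scaling, filter, DESeq2 1.42.0, limma-voom (limma 3.58.1), the authors' normalized signal, covariates, and animals or runs left out.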

Additional observations from a re-analysis of the deposited data

How the results depend on the processing

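The count of 1 gene called (late over early) stayed 1 with median-of-ratios size factors, limma-voom, plate row, library total, the authors' normalized values at both pseudocounts, without the 5 lowest totals and without animal 2181, an alternative added after the data were seen. Without the 5 lowest totals the called gene was another, since Rpl7l1 stood at an adjusted p of 0.0889, and likewise without run 4 (0.187). It was 2 without a low-count filter and 47 with DESeq2. It was 0 with no run term, with coat colour, with plate column, in the 90-animal fit, at the outer positions (42 to 50 against 25 to 33), in agouti animals only and with the length index, where 1630, 1623, 632, 1725, 1511, 1536 and 897 genes had an unadjusted p under 0.05. Leaving out 1 run at a time gave 0 to 2 calls. The cause of these moves was not tested. Arntl, Dbp and Ciart kept their direction in 25 of 25 alternatives with 0 past the threshold, at −0.96 to −0.17, 0.10 to 0.97 and 0.22 to 1.08. Leaving out 1 run at a time gave −0.86 to −0.17 for Arntl, 0.10 to 0.53 for Dbp and 0.33 to 0.93 for Ciart. The difference of slopes between treated and vehicle animals gave 1 call without the run term and 0 with it. No paired analysis was possible because the replicate numbers are animal numbers, which name no partner in another group. Matching by run, which late and early animals share, is in the comparison itself as the run term. How much of the spread of the clock genes came from counting error rather than from differences between animals was not tested.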

Other observations

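Gene families were counted after their members had been seen among the lowest p-values, so the counts below are descriptions with no test. Of 38 proteasome subunit genes (Psma to Psmd) tested, 36 had a negative log2 fold change of late over early, with a median of −0.14, and 24 had an unadjusted p under 0.05, which is 63.2% against 12.6% of all genes. None was called, and the lowest adjusted p was 0.134 (edgeR), that of Psmd13, a subunit of the regulatory particle. Mitochondrial ribosomal protein genes were negative in 72 of 78, with a median of −0.08 and 17 at an unadjusted p under 0.05. Cytosolic ribosomal protein genes were negative in 70 of 78, with a median of −0.07 and 4 at that p. Zinc finger genes of the Zfp series leaned the other way, with 239 of 329 positive, a median of 0.08, and 45 higher and 6 lower at that p.

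The median summed exon length was 2814 bases for the proteasome genes, 2394 for the mitochondrial and 1755 for the cytosolic ribosomal protein genes and 4624 for the Zfp genes, beside 4356 over all genes tested. The shortest of these families, the cytosolic ribosomal proteins, was negative in 70 of 78 genes. At an unadjusted p under 0.05 stood 5.13% of its genes, against 12.6% of all genes. The part of length in these counts was not tested gene by gene, and families were not compared with other genes of the same length.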
